A study of Mus musculus with 9 samples.

Results

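Full loss of MYC was examined in mouse cells of T cell acute lymphoblastic leukemia (T-ALL) by setting the 3 MYC on libraries against the 3 MYC off libraries, which are 6 of the 9 libraries sequenced. All genes of the count tables entered the comparison, and the libraries were chosen by the MYC state in their titles. The T-ALL cells carry a human MYC transgene (hMYC) under a tetracycline-controlled promoter, with the activator expressed from the lymphoid EμSRα promoter of FVB/N tumors, so that doxycycline shuts MYC off. MYC on cells were mock treated and MYC off cells received 500 pg/mL doxycycline, both for 48 hours. The remaining 3 libraries (MYC intermediate, 20 pg/mL doxycycline, 48 hours) share the transgene and are described below only as context, although they enter the fit that sets the spread behind every p-value. The cells come from tumor-derived T-ALL cells in culture, and neither the number of lines nor whether replicates were separate cultures is given in the labels, so a p-value speaks for the spread among these libraries alone, which may be technical. Library totals ran from 18705516 to 39678799 counts, and levels are given in CPM, counts scaled to the library total.

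MYC is a transcription factor of the basic helix-loop-helix family that binds DNA together with MAX, with the E-box CACGTG as its preferred site. It is known for raising genes of cell growth, RNA and protein production and metabolism, and it lowers other genes, in part through partner factors already bound at their promoters. In T cell precursors MYC follows Notch and cytokine signals, and its forced expression is a common driver of T-ALL. Signaling, migration and differentiation genes of T lineage cells are therefore of interest beside the growth genes when MYC is withdrawn.

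The targeted gene followed the labels. hMYC had 1340, 1190 and 1250 CPM in MYC on and 4.08, 4.01 and 3.26 CPM in MYC off, and MYC on libraries lay far above all MYC off libraries (edgeR log2 fold change 8.41 ± 0.10 SE, adjusted p = 5.43e-17, exact two-sided permutation p = 0.1, the smallest that 3 against 3 libraries can give). MYC intermediate libraries held 428, 414 and 383 CPM. The mouse genes Myc and Mycn had 0 counts among 166569772 in the 6 libraries, and a count of 0 permits at most 0.018 CPM (3 counts, counting error only). How reads were split between Myc and hMYC, counted side by side, is not known, so 0 counts do not show that Myc was silent. Mycl, the other family member, had 62 counts. The cells were labeled T-ALL, and all 18 T cell markers were counted, summing to 12000 to 12600 CPM in MYC on and 22900 to 24300 CPM in MYC off.

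Of 14098 genes tested, 3857 were higher and 3877 lower in MYC on at an adjusted p under 0.01 (edgeR, Benjamini-Hochberg), which is 54.9% called, 27.4% higher and 27.5% lower. For 7691 of the 7734 called genes the MYC on and MYC off libraries did not overlap. That follows largely from the call itself and adds no separate support. The median change was modest in both directions, 1.76-fold for genes called higher and 1.62-fold for genes called lower, and the median log2 fold change of all genes tested was −0.03. Changes above 2-fold numbered 1517 higher and 1229 lower, changes above 4-fold 412 and 310, and changes above 16-fold 42 and 31. The share called was smaller among weakly counted genes, with 9.92% higher and 12.6% lower below 1 CPM against 34.7% and 43.1% at 1000 CPM or more. Genes called higher took 44.4% ± 0.304 of the counts in MYC on and 25.7% ± 0.358 in MYC off, while genes called lower took 27.7% ± 0.222 and 45.8% ± 0.322 (SD, n = 3 each). Those shares follow partly from how the genes were chosen and give the size of the shift, without a test.

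**Figure D1:**
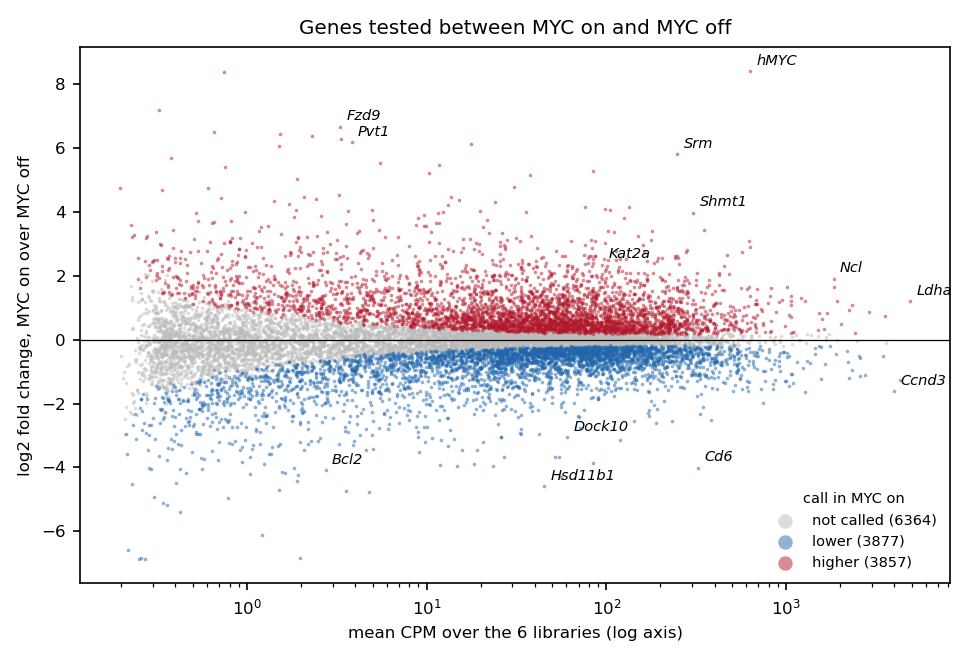
Each point is 1 of 14098 genes tested, with the mean CPM over the 6 libraries on a log axis and the log2 fold change of MYC on over MYC off on the other axis. Red marks 3857 genes called higher in MYC on, blue 3877 called lower and gray 6364 not called, and hMYC stands at the top at 8.41.

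Promoters were compared first for the E-box. RefSeq promoters of the GRCm38.p6 build (mm10), each running from 250 bases before to 50 bases after a start site, were found for 9575 of the 14098 genes tested, some with more than 1 start site (12089 promoters). They covered 73.4% of genes called higher, 72.6% of those called lower and 61.8% of those not called, so the shares below describe these promoters and not all genes of each set. CACGTG, which reads the same on both strands, was present in 14% of 3453 promoters of genes called higher, in 7.85% of 3760 promoters of genes called lower and in 8.86% of 4876 promoters of genes not called. Among all 32851 promoters of the table the share was 7.15%. The share went up with the size of the change, to 16.5% above 2-fold and 19.2% above 4-fold for genes called higher, while genes called lower had 5.85% above 2-fold and 7.29% above 4-fold.

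With fewer than 80% of the genes of each set matched, a check of these shares against GC content is void and is not given. The related motif CACGCG (searched as CACGCG and CGCGTG) stood in 22.8%, 13.1%, 16.1% and 9.27% of promoters of genes called higher, called lower, not called and of all promoters. The forkhead motif GTAAACA (with TGTTTAC) stood in 2.2%, 2.47%, 2.69% and 3.65% of the same promoters. The ETS motif CCGGAAG (with CTTCCGG) stood in 20.2%, 16.2%, 19.2% and 8.86%, and stood lower above 2-fold in both directions, at 16.9% of promoters of genes called higher and 7.08% of genes called lower. None of the 4 motifs contains another, and a match is only a run of letters, not a bound site.

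**Figure D2:**
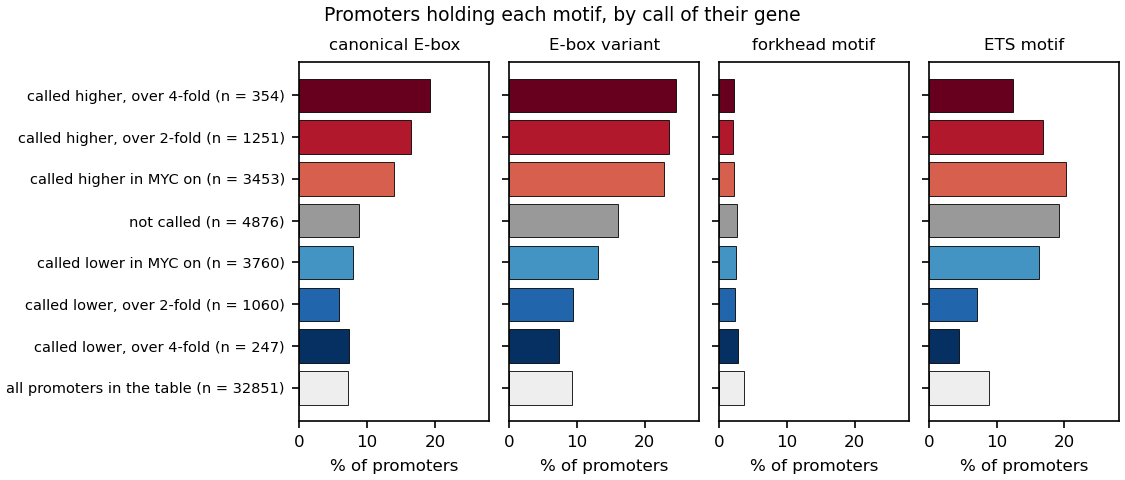
Bars give the percentage of RefSeq promoters that hold each of 4 motifs, searched on both strands, by the call and fold change of their gene (MYC on over MYC off), with the number of promoters beside each set. The canonical E-box stands at 19.2% in genes called higher above 4-fold and 8.86% in genes not called. In genes called lower it stands at 5.85% above 2-fold and 7.29% above 4-fold.

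The promoters of 10 genes are shown so that the E-box can be seen in place. Of the 25 genes with the largest fold higher in MYC on, 19 had a promoter in the table and 4 held CACGTG. Of the 25 genes with the largest fold lower, 18 had a promoter and 0 held it. Textbook genes with a promoter held it in 9 of 39 MYC-activated and 3 of 18 MYC-repressed cases. These sets are small and counted per gene. Counted per promoter, the share was 8.86% for genes not called and 7.15% for all promoters. The 4 genes from the largest folds are printed first, then the 4 textbook MYC-activated genes with the largest fold and the 2 textbook MYC-repressed genes with the largest fold that hold the site. Capitals mark CACGTG and sequences read 5′ to 3′ along the gene. Where the site lies before the start site 80 bases are given, and where it lies after the start site only the site with its flanks is given, 30 bases.
Lingo3: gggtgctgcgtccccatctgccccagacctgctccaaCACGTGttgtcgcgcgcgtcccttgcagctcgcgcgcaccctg
Lap3: cgcgcgccctgccacgcgcCACGTGctcct
Pus7: ggcgcagcgccgCACGTGtgcgagcccggc
Mettl1: agctcggctctcCACGTGgactgcgtggca
Hspd1: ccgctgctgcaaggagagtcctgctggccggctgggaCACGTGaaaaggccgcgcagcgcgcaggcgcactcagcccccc
Apex1: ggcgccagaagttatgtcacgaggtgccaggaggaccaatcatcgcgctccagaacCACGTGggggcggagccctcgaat
Nme1: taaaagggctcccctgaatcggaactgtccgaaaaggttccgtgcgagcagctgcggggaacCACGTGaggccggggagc
Prmt1: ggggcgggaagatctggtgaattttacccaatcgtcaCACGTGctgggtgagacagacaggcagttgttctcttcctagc
Cdkn2c: ttttgctgaataatCACGTGtgaatcgagg
Gadd45b: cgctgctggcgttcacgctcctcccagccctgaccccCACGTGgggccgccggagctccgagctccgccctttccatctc
Lingo3 is printed from chr10:80844088-80844167 on the minus strand, with the site starting 91 bases before the start site. Lap3 is printed from chr5:45493394-45493423 on the plus strand, with the site starting 39 bases after the start site. Pus7 is printed from chr5:23783666-23783695 on the minus strand, with the site starting 28 bases after the start site. Mettl1 is printed from chr10:127041950-127041979 on the plus strand, with the site starting 30 bases after the start site. Hspd1 is printed from chr1:55088281-55088360 on the minus strand, with the site starting 80 bases before the start site. Apex1 is printed from chr14:50924869-50924948 on the plus strand, with the site starting 24 bases before the start site (the last of 3 in this promoter). Nme1 is printed from chr11:93968273-93968352 on the minus strand, with the site starting 18 bases before the start site. Prmt1 is printed from chr7:44986559-44986638 on the minus strand, with the site starting 181 bases before the start site. Cdkn2c is printed from chr4:109665323-109665352 on the minus strand, with the site starting 34 bases after the start site. Gadd45b is printed from chr10:80929869-80929948 on the plus strand, with the site starting 185 bases before the start site. The site thus also stands in promoters of genes that were lower in MYC on.

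Textbook MYC-activated genes were mostly higher in MYC on. Here and in what follows, a single signed value in parentheses after a gene is its log2 fold change of MYC on over MYC off, every gene called higher or lower had an adjusted p under 0.01 by edgeR, and a list's median is the median log2 fold change of its tested members. Of 48 tested members of the list of textbook MYC-activated genes, 38 were higher, 2 lower and 8 not called (median log2 fold change 1.42), against 27.4% called higher over all genes. The counts of every list below are likewise to be read beside 27.4% higher and 27.5% lower over all genes tested. Srm, for spermidine synthase, and Bcat1, for an aminotransferase of branched-chain amino acids, had log2 fold changes of 5.81 and 5.30. Npm1, which encodes the nucleolar chaperone nucleophosmin, had 1160, 1160 and 1003 CPM in MYC on and 140.2, 134 and 123 CPM in MYC off (edgeR log2 fold change 3.096 ± 0.08 SE, adjusted p = 5.8e-14). Ncl, for the nucleolar protein nucleolin, and Eif5a, the translation factor that carries hypusine made from spermidine, were among the genes with the largest gain in CPM, from 788 and 908 CPM in MYC off to 2901 and 2773 CPM in MYC on. The exceptions were E2f2, a cell cycle transcription factor, and Id2, an inhibitor of E proteins, which were lower in MYC on by log2 fold changes of −1.40 and −0.94.

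Textbook MYC-repressed genes were mostly lower in MYC on, with exceptions of their own. The list of textbook MYC-repressed genes had 3 higher and 14 lower among 22 tested genes (median −0.79). Bcl2, the anti-apoptotic gene, had 0.295, 0.214 and 0.341 CPM in MYC on and 4.64, 6.01 and 4.94 CPM in MYC off (edgeR log2 fold change −4.10 ± 0.27 SE, adjusted p = 2.51e-09), with no overlap between the groups. Itgal, which encodes the integrin alpha L chain of LFA-1, had 49.9, 49.7 and 54.9 CPM in MYC on and 314, 314 and 346 CPM in MYC off (−2.62). Both genes for inhibitors of cyclin-dependent kinases named here were lower too, Cdkn2c at −1.62 and Cdkn1a at −1.38. Against the name of the list, Ndrg1 (0.92), Itgb1 (0.73) and Ndrg2 (0.52) were higher in MYC on.

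Among the genes with the largest folds, several higher in MYC on encode metabolic enzymes. Shmt1, the cytosolic serine hydroxymethyltransferase of folate metabolism, had 562, 579 and 574 CPM in MYC on and 37.9, 36.7 and 36.3 CPM in MYC off (edgeR log2 fold change 3.98 ± 0.06 SE, adjusted p = 1.65e-16). Lap3, a leucine aminopeptidase, had 145, 145 and 140.4 CPM in MYC on and 9.70, 7.87 and 7.09 CPM in MYC off (4.15). The groups were far apart in both genes, with MYC off below MYC on in every library. Dctd, a deoxycytidylate deaminase of nucleotide synthesis (4.39), Car12, a membrane carbonic anhydrase (4.31), Txnrd3, a thioredoxin reductase (4.21), and Mt1, a metallothionein (4.03), moved the same way. Ybx3, an RNA-binding protein of the cold shock domain family, had 262, 247 and 254 CPM in MYC on and 14.2, 15.2 and 14.7 CPM in MYC off (4.15). Pus7, a pseudouridine synthase (4.09), and Efhd1, a calcium-binding protein of mitochondria (3.99), were also higher.

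Fzd9, a Frizzled receptor for WNT ligands, was the only gene with at least 5 CPM in MYC on and at most 3 counts in each MYC off library. It had 5.56, 6.42 and 7.67 CPM in MYC on and 0.0504, 0.0743 and 0.0633 CPM in MYC off (edgeR log2 fold change 6.68 ± 0.30 SE, adjusted p = 3.08e-11), and MYC off held 6 counts over its 3 libraries. No gene met those limits in the opposite direction. With a limit of 1 CPM in place of 5 the count was 14, and with no counts allowed in place of 3 it was 0.

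The genes with the largest folds lower in MYC on include regulators of T cell development and effector genes. Hsd11b1, which makes active glucocorticoid from its inert form, had 3.98, 3.21 and 3.31 CPM in MYC on and 92.01, 82.3 and 84.9 CPM in MYC off (edgeR log2 fold change −4.60 ± 0.11 SE, adjusted p = 2.09e-14). Tox, a nuclear factor of thymocyte development, had 4.23, 3.53 and 3.78 CPM in MYC on and 47.8, 50.9 and 52.4 CPM in MYC off (−3.67). Tespa1, an adaptor needed in thymocyte selection, had 10.4, 10.00 and 11.2 CPM in MYC on and 148, 164 and 159 CPM in MYC off (−3.86). MYC on was the lower state in every library of these 3 genes. Spsb1, a SOCS box protein (−3.92), Pglyrp2, a peptidoglycan amidase (−3.95), Nlrc3, a NOD-like receptor (−3.45), Tlr12, a Toll-like receptor (−3.13), and Zbp1, a sensor of nucleic acids (−2.97), were lower in MYC on. The cytotoxic granule gene Prf1 (perforin) had 1.43, 2.25 and 1.91 CPM in MYC on and 18.5, 15.3 and 19.2 CPM in MYC off (−3.22). Gzma, for granzyme A of the same granules, had 3.98, 4.01 and 3.78 CPM in MYC on and 41.99, 34.2 and 34.99 CPM in MYC off (−3.21). Markers of natural killer cells summed to 5.41 to 6.25 CPM in MYC on and 49.6 to 60.6 CPM in MYC off. Nearly all of that sum was Prf1 and Gzma, so it is not a separate result. Of the 10 markers, 6 had 0 counts in all 6 libraries, among them Ncr1 and Klrd1.

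**Figure D3:**
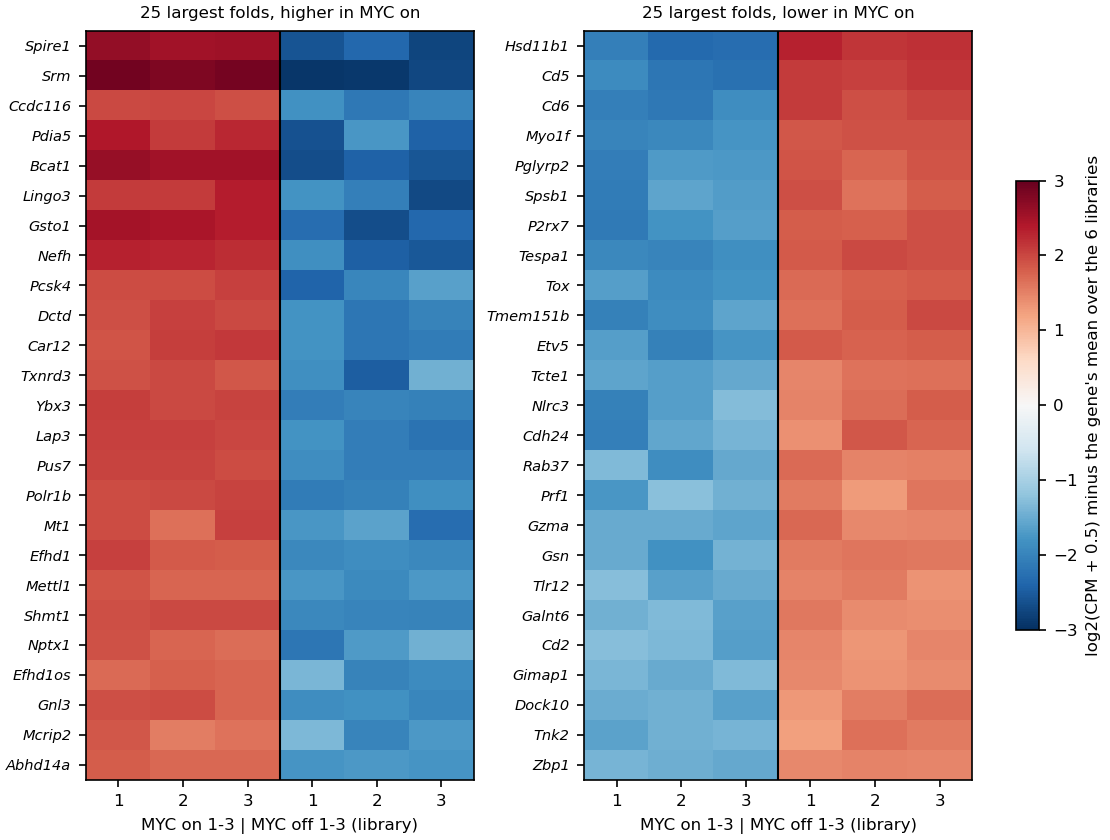
The 25 genes per direction with the largest fold change, at least 10 CPM in MYC on or MYC off and no overlap between groups are shown, 1 row per gene and 1 column per library. Color gives log2(CPM + 0.5) minus the gene's mean over the 6 libraries, and the 3 libraries of each state look alike in every row.

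Enzymes that modify RNA were mostly higher in MYC on. Among 70 tested genes of the list of RNA and tRNA methyltransferases, 47 were higher and 1 lower (median 0.53). Mettl1, which methylates guanosine in tRNA, had 24.9, 22.4 and 22.4 CPM in MYC on and 1.54, 1.34 and 1.58 CPM in MYC off (edgeR log2 fold change 3.99 ± 0.13 SE, adjusted p = 6.09e-13), and it is among the genes whose E-box is printed above. Nat10, the acetyltransferase of cytidine in rRNA and tRNA, had 187, 189.9 and 183 CPM in MYC on and 17.2, 20.8 and 16.7 CPM in MYC off (3.39). Trmt61a, the catalytic subunit that methylates adenosine in tRNA, and Nsun2, a cytosine methyltransferase, had log2 fold changes of 2.86 and 2.75. The member lower in MYC on was Virma, a scaffold of the N6-methyladenosine writer (86.99, 93.02 and 96.01 CPM in MYC on and 133, 137 and 139.9 CPM in MYC off, −0.54).

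Helicases and genes of RNA degradation were called in both directions. For DEAD-box and DEAH-box helicases, 22 of 48 tested genes were higher and 6 lower (median 0.16). Ddx21 and Dhx33, which act in the nucleolus, were higher (2.21 and 2.14), whereas Ddx58, the cytoplasmic sensor RIG-I, had 9.74, 11.2 and 8.35 CPM in MYC on and 37.4, 40.2 and 38.8 CPM in MYC off (−1.97). RNA exosome genes comprised 11 higher and 2 lower genes of 18 tested (median 0.37). Exosc7 and Exosc1, subunits of its core, and the catalytic ribonuclease Dis3 were higher by 1.52, 1.36 and 1.31, while Dis3l, the ribonuclease of the cytoplasmic form, and Zcchc8, of a nuclear adaptor complex, were lower (−0.34 and −0.33). Of 54 tested members of the list of mRNA decay, deadenylation and AU-rich binding, 9 were higher, 20 lower and 25 not called (median log2 fold change −0.09). Btg2, an antiproliferative protein that brings deadenylases to mRNA, had 336, 318 and 322 CPM in MYC on and 798, 792 and 768 CPM in MYC off (edgeR log2 fold change −1.24 ± 0.05 SE, adjusted p = 1.22e-11), and its relative Btg1 had a log2 fold change of −1.37. The list of small RNA processing and Argonautes had 2 higher and 2 lower among 12 tested genes (median −0.09), with Xpo5 and Drosha of microRNA maturation higher (0.67 and 0.54) and the GW182 family genes Tnrc6b and Tnrc6c lower (−0.73 and −0.71).

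Chromatin and transcription genes moved in both directions, with arginine methyltransferases mostly higher. Among 11 tested genes of the list of protein arginine methyltransferases, 9 were higher and 0 lower (median 1.52). Prmt3, which methylates a ribosomal protein, had 70.7, 69.2 and 61.98 CPM in MYC on and 15.2, 13.4 and 13.2 CPM in MYC off (edgeR log2 fold change 2.30 ± 0.09 SE, adjusted p = 5.28e-12), and Prmt7 and Carm1 had log2 fold changes of 1.88 and 1.72. Wdr77, the partner of Prmt5, stood at 2.62. More than 20% of the exon bases of Wdr77 and Carm1 overlap another gene, and since the library kit does not mark the strand their values are less certain. For RNA polymerase II subunits and general factors, 26 of 55 tested genes were higher and 10 lower (median 0.19). Polr2f and Polr2e, small subunits shared among RNA polymerases, were higher (1.35 and 1.07), while Polr2a, the largest subunit, had 172, 190.3 and 204 CPM in MYC on and 282, 291 and 326 CPM in MYC off (−0.63). Mediator subunits comprised 8 higher and 8 lower genes of 32 tested (median 0.07).

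Acetyltransferases showed a pair of close relatives moving apart. Of 44 tested members of the list of histone acetyltransferases, deacetylases and BET, 10 were higher, 16 lower and 18 not called (median log2 fold change −0.10). Kat2a, the acetyltransferase GCN5 of the SAGA complex, had 153, 157 and 163 CPM in MYC on and 29.97, 30.5 and 34.1 CPM in MYC off (edgeR log2 fold change 2.36 ± 0.07 SE, adjusted p = 2.22e-13). Kat2b, its paralog PCAF, had 8.22, 6.31 and 6.81 CPM in MYC on and 12.98, 21.3 and 20.5 CPM in MYC off (edgeR log2 fold change −1.31 ± 0.16 SE, adjusted p = 3.63e-06). The groups did not overlap for either gene. Hdac7, a class IIa deacetylase of thymocytes, and the sirtuin genes Sirt6 and Sirt7 were lower (−1.10, −0.78 and −0.69).

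Of the chromatin remodelers 47.9% were called lower, beside 28.6% of Polycomb genes and 27.5% of all genes, and repair genes had equal numbers in each direction. The list of SWI/SNF, ISWI, CHD and INO80 remodelers had 10 higher and 23 lower among 48 tested genes (median −0.27). Ruvbl1 and Ruvbl2, ATPases that also serve RNA polymerase and snoRNP assembly, were higher (1.31 and 1.44), while Arid1a, Smarcc2 and Pbrm1 of SWI/SNF complexes were lower (−0.92, −0.68 and −0.64). Among 35 tested genes of the list of Polycomb complexes, 7 were higher and 10 lower (median −0.05). Pcgf6, a subunit of the variant Polycomb complex that also contains MAX, had 42.5, 45.98 and 41.6 CPM in MYC on and 10.2, 11.8 and 11.2 CPM in MYC off (edgeR log2 fold change 2.01 ± 0.08 SE, adjusted p = 1.11e-11), whereas Scmh1, Phc2 and Phc1 of canonical complexes were lower (−1.29, −0.87 and −0.72). For genes of base excision, mismatch and end-joining repair, 16 of 42 tested genes were higher and 16 lower (median 0.05). Parp1, the poly(ADP-ribose) polymerase, and Ung, the uracil glycosylase, were higher (1.37 and 1.25), while the end-joining genes Polm and Lig4, which act in V(D)J recombination, were lower (−1.61 and −1.12). Apex1, the abasic site endonuclease, stood at 2.58, with 61.7% of its exon bases overlapping another gene.

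**Figure D4:**
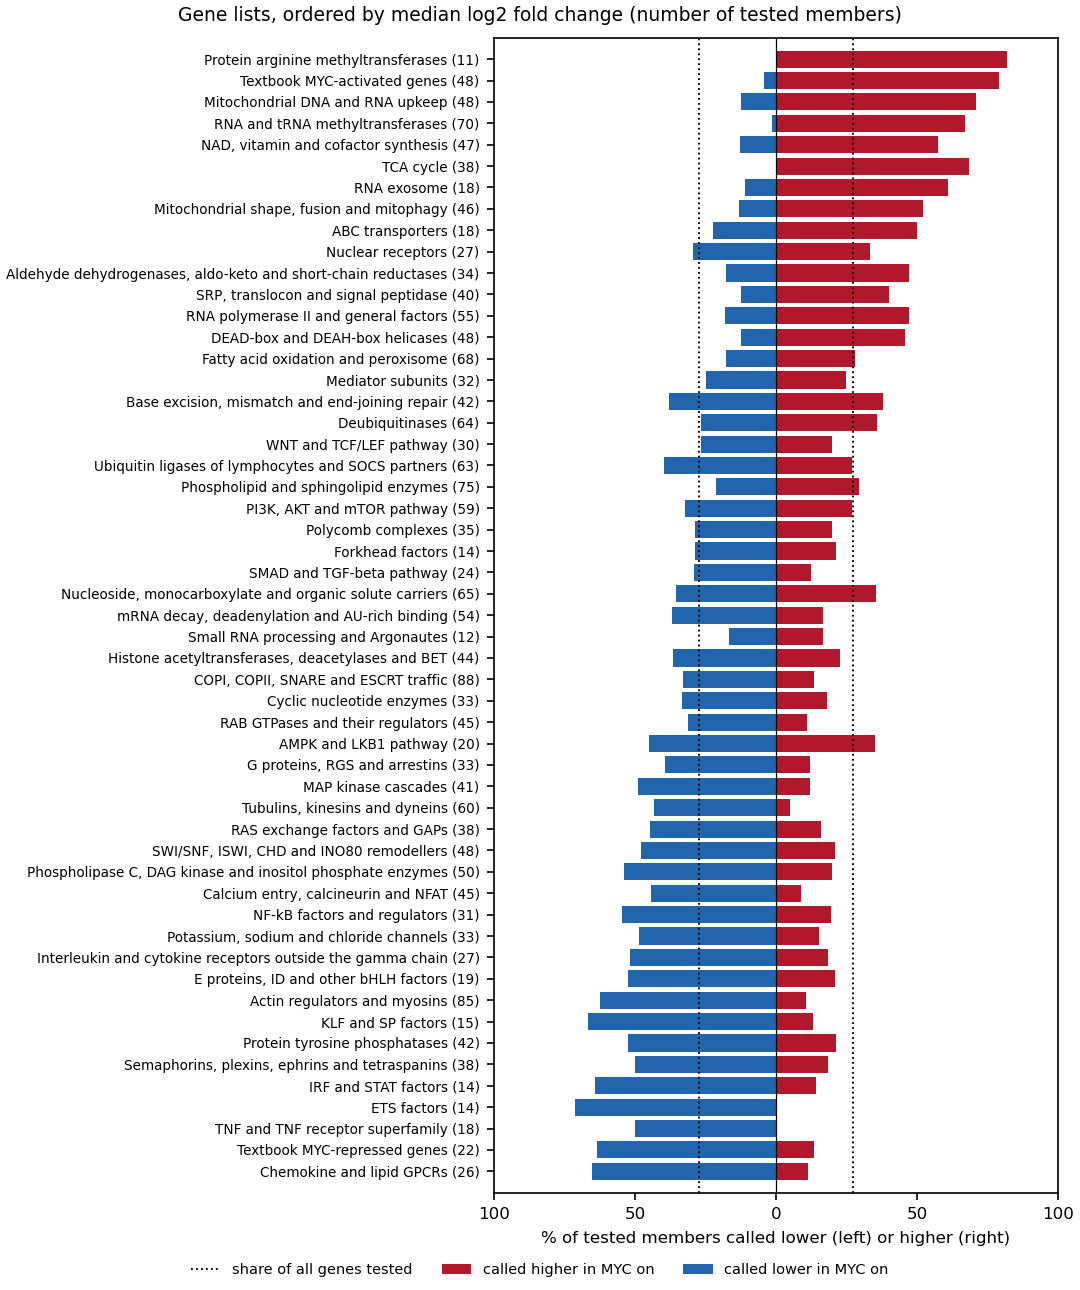
Bars give the percentage of tested members of each of 53 gene lists called lower (left, blue) or higher (right, red) in MYC on, with the number of tested members in parentheses and dotted lines at 27.5% lower and 27.4% higher, the shares of all genes tested. Arginine methyltransferases and MYC-activated genes stand at the top and chemokine and lipid receptors at the bottom, ordered by median log2 fold change.

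Mitochondrial upkeep and the citric acid (TCA) cycle were mostly higher in MYC on. Genes for upkeep of mitochondrial DNA and RNA comprised 34 higher and 6 lower genes of 48 tested (median 0.73). Top1mt, the mitochondrial topoisomerase, had 77.3, 73.3 and 71.8 CPM in MYC on and 13.4, 12.03 and 13.4 CPM in MYC off (edgeR log2 fold change 2.55 ± 0.08 SE, adjusted p = 8.08e-13). Pprc1 and Ppargc1b, coactivators of the PGC-1 family, were higher by 2.47 and 2.05. The exceptions included Polg, the mitochondrial DNA polymerase, and the transcription factor genes Nrf1 and Gabpb1 that drive nuclear genes of mitochondria (−0.47, −0.41 and −0.51). Of 38 tested members of the list of TCA cycle genes, 26 were higher, 0 lower and 12 not called (median log2 fold change 0.41). Suclg2, the GTP-forming subunit of succinyl-CoA ligase, had 128, 132 and 126 CPM in MYC on and 21.7, 21.2 and 19.6 CPM in MYC off (2.66), and Dlat of pyruvate dehydrogenase and Idh3a of isocitrate dehydrogenase were higher by 1.08 and 1.07. The list of mitochondrial shape, fusion and mitophagy had 24 higher and 6 lower among 46 tested genes (median 0.31). Mtfp1, a fission protein of the inner membrane, had 18.4, 17.7 and 19.01 CPM in MYC on and 1.44, 1.34 and 1.96 CPM in MYC off (3.57), and the prohibitin genes Phb and Phb2 had log2 fold changes of 2.27 and 1.88.

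Genes of cofactor synthesis were mostly higher too, whereas solute carriers were called equally often in each direction. Among 47 tested genes of the list of NAD, vitamin and cofactor synthesis, 27 were higher and 6 lower (median 0.46). Qdpr, which regenerates tetrahydrobiopterin, and Lipt2, a lipoyl transferase, were higher (1.99 and 2.82). Nmnat3, the mitochondrial enzyme that makes NAD, was higher (1.75), and Nmnat1, the nuclear enzyme of the same step, was lower (−0.87). For nucleoside, monocarboxylate and organic solute carriers, 23 of 65 tested genes were higher and 23 lower (median −0.06). Slc19a1, the reduced folate carrier, had 201, 194 and 204 CPM in MYC on and 20.4, 19.4 and 18.7 CPM in MYC off (edgeR log2 fold change 3.39 ± 0.07 SE, adjusted p = 1.31e-14). Slc29a2, an equilibrative nucleoside transporter, had 6.74, 6.31 and 7.63 CPM in MYC on and 0.504, 0.594 and 0.19 CPM in MYC off (4.03). In the opposite direction, Slc9a9, an endosomal sodium and proton exchanger, and Slc43a2, a carrier of neutral amino acids, were lower (−2.81 and −1.87).

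ABC transporters comprised 9 higher and 4 lower genes of 18 tested (median 0.22). Abcc1 and Abcc4, which export organic anions and drugs, were higher by 2.77 and 2.53, and Abca7, a lipid transporter, was lower (−1.42). Of 34 tested members of the list of aldehyde dehydrogenases, aldo-keto and short-chain reductases, 16 were higher, 6 lower and 12 not called (median log2 fold change 0.20), among them Aldh18a1 of proline synthesis (1.91). The list of phospholipid and sphingolipid enzymes had 22 higher and 16 lower among 75 tested genes (median −0.04), with Lpcat4, a lysophospholipid acyltransferase, at 2.01 and Pld3, a lysosomal nuclease of the phospholipase D family, at −1.85. Among 68 tested genes of the list of fatty acid oxidation and peroxisome, 19 were higher and 12 lower (median 0.10), which is 27.9% higher and 17.6% lower beside 27.4% and 27.5% over all genes. Acad9 and Hadh of mitochondrial oxidation were higher (1.10 and 0.997), and Acox3 of peroxisomes was lower (−0.71).

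Genes of the actin skeleton were mostly lower in MYC on. For actin regulators and myosins, 9 of 85 tested genes were higher and 53 lower (median −0.42), beside 27.5% called lower over all genes. Gsn, the actin-severing protein gelsolin, had 24.8, 19.8 and 26.3 CPM in MYC on and 213, 218 and 216 CPM in MYC off (edgeR log2 fold change −3.15 ± 0.09 SE, adjusted p = 1.8e-13). Myo1f, a class I myosin of blood cells, had 2.51, 2.62 and 3.00 CPM in MYC on and 43.2, 44.3 and 44.3 CPM in MYC off (−3.97). The MYC off libraries were the higher ones for both genes, with no overlap. Fmnl1, a formin of leukocytes, was lower (−2.12), and Tmsb4x, the actin monomer binder, was listed at only 0.843 and 6.19 CPM. Spire1, an actin nucleator, went strongly the other way, with 36.2, 33.6 and 34.3 CPM in MYC on and 0.479, 0.668 and 0.38 CPM in MYC off (6.14), and Tagln2, Myo5a and Myo10 were higher by 1.42, 1.15 and 0.85.

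Dock10, an exchange factor for CDC42 and RAC, had 13.1, 13.6 and 11.8 CPM in MYC on and 93.4, 110.2 and 122 CPM in MYC off (edgeR log2 fold change −3.05 ± 0.09 SE, adjusted p = 4.14e-13). Dock9, of the same family as Dock10, and Elmo1, a partner of DOCK proteins, were higher (1.02 and 0.90). Tubulins, kinesins and dyneins comprised 3 higher and 26 lower genes of 60 tested (median −0.25). Map7, which recruits kinesin, and Kif21b were lower (−1.46 and −0.98), while Mapre2, a plus-end binder, was higher (1.31).

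Receptors for chemokines and lipids had the lowest median of the 53 lists plotted. Of 26 tested members of the list of chemokine and lipid GPCRs, 3 were higher, 17 lower and 6 not called (median log2 fold change −1.03). Adgrg5 (−2.42), an adhesion receptor of neither kind, is among the 17 lower. Ccr7, the homing receptor for lymph node chemokines, had 2.21, 2.51 and 2.59 CPM in MYC on and 16.1, 16.8 and 17.6 CPM in MYC off (edgeR log2 fold change −2.74 ± 0.14 SE, adjusted p = 1.51e-10). Lpar6 had 28.9, 34.4 and 26.7 CPM in MYC on and 79.3, 94.6 and 93.3 CPM in MYC off (−1.54), whereas Lpar5, another receptor for lysophosphatidic acid, had 20.9, 18.9 and 20.3 CPM in MYC on and 4.69, 4.38 and 3.93 CPM in MYC off (2.24). The 2 receptors thus moved in opposite directions with no overlap between groups in either. The list of G proteins, RGS and arrestins had 4 higher and 13 lower among 33 tested genes (median −0.18). Gnai2, the inhibitory G protein subunit used by chemokine receptors, had 347, 338 and 376 CPM in MYC on and 746, 696 and 714 CPM in MYC off (−0.99), and the regulators Rgs14 and Rgs12 were lower too (−1.71 and −1.22). Among 33 tested genes of the list of cyclic nucleotide enzymes, 6 were higher and 11 lower (median −0.12). Adcy1, an adenylyl cyclase, and Pde10a, a phosphodiesterase, were lower (−2.90 and −1.28), and Akap1 and Prkar2a, an anchor and a regulatory subunit of protein kinase A, were higher (2.01 and 1.71).

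Among genes of second messengers and calcium, lower members outnumbered higher ones. For enzymes of phospholipase C, diacylglycerol and inositol phosphate pathways, 10 of 50 tested genes were higher and 27 lower (median −0.29). Dgka, the diacylglycerol kinase of resting T cells, had 54.7, 61.4 and 64.2 CPM in MYC on and 257, 299 and 295 CPM in MYC off (edgeR log2 fold change −2.20 ± 0.07 SE, adjusted p = 5.54e-13). Dgke, a relative of it, had 48.6, 48.97 and 47.7 CPM in MYC on and 19.03, 22.4 and 24.5 CPM in MYC off (1.18). Prkd2, Prkch and Itpkb, kinases of diacylglycerol and inositol phosphate signaling, were lower (−1.91, −1.87 and −1.52), and Isyna1, which makes inositol phosphate from glucose phosphate, was higher (1.81). Calcium entry, calcineurin and NFAT comprised 4 higher and 20 lower genes of 45 tested (median −0.33). Atp2a3, the calcium pump SERCA3, had 279, 279 and 322 CPM in MYC on and 1170, 1165 and 1237 CPM in MYC off (−1.99), while its relative Atp2a2 (SERCA2) was higher (0.61). P2rx7, a cation channel opened by extracellular ATP, had 1.72, 2.30 and 2.59 CPM in MYC on and 33.6, 32.9 and 36.3 CPM in MYC off (−3.90). Orai3, a subunit of store-operated calcium channels, was the member most raised in MYC on (2.16). Of 33 tested members of the list of potassium, sodium and chloride channels, 5 were higher, 16 lower and 12 not called (median log2 fold change −0.38), with Kcnh3 at −2.07 and Kcnk5 at 1.41.

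Lower members also outnumbered higher ones among phosphatases and kinase cascades. The list of protein tyrosine phosphatases had 9 higher and 22 lower among 42 tested genes (median −0.44). Ptprc, the leukocyte phosphatase CD45, had 364, 373 and 363 CPM in MYC on and 1056, 1089 and 1132 CPM in MYC off (edgeR log2 fold change −1.54 ± 0.05 SE, adjusted p = 1.14e-12). Dusp6, a phosphatase of ERK, had 1.77, 2.08 and 2.01 CPM in MYC on and 13.2, 11.6 and 11.8 CPM in MYC off (−2.60), and Dusp7, also a phosphatase of ERK, had 26.5, 27.4 and 29 CPM in MYC on and 5.17, 5.46 and 6.27 CPM in MYC off (2.33). These phosphatases of the same kinase thus changed in opposite directions, with no overlap between groups in either. Among 41 tested genes of the list of MAP kinase cascades, 5 were higher and 20 lower (median −0.22). Members of the MAP4K family, Map4k5, Map4k2 and Map4k4, were lower (−1.21, −1.01 and −0.73). For RAS exchange factors and GAPs, 6 of 38 tested genes were higher and 17 lower (median −0.25). Rasal3, a RAS GTPase activator of lymphocytes, had 120.2, 127 and 133 CPM in MYC on and 516, 579 and 593 CPM in MYC off (−2.11), and the exchange factors Rasgrp4 and Rasgrp2 were lower (−1.45 and −1.16).

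PI3K, AKT and mTOR pathway comprised 16 higher and 19 lower genes of 59 tested (median −0.04), or 27.1% and 32.2%, near the 27.4% and 27.5% over all genes. Within it, Pik3cg, the catalytic gamma subunit of PI3K, had 65.3, 68.1 and 71.5 CPM in MYC on and 299, 317 and 328 CPM in MYC off (−2.17), and the regulatory subunit gene Pik3r1 was lower (−1.42). Eif4ebp1, the repressor of the cap-binding factor eIF4E, had 82.5, 66.8 and 77.7 CPM in MYC on and 17.1, 15.2 and 14.1 CPM in MYC off (2.32), and Deptor, an inhibitor within mTOR complexes, was higher (2.55). Of 20 tested members of the list of AMPK and LKB1 pathway, 7 were higher, 9 lower and 4 not called (median log2 fold change −0.15). Sik1, a salt-inducible kinase, was higher (2.54) and its relatives Sik2 and Sik3 were lower (−0.51 and −0.44).

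Among cytokine and death receptors and in the NF-kB system, lower calls outnumbered higher ones. The list of TNF and TNF receptor superfamily had 0 higher and 9 lower among 18 tested genes (median −0.68). Cd27, a costimulatory receptor, had 52.6, 54.2 and 62.8 CPM in MYC on and 285, 276 and 287 CPM in MYC off (edgeR log2 fold change −2.28 ± 0.08 SE, adjusted p = 8.72e-13), and Ltb (lymphotoxin beta) and the death receptor gene Fas were lower (−1.90 and −1.65). Among 27 tested genes of the list of interleukin and cytokine receptors outside the gamma chain, 5 were higher and 14 lower (median −0.39). The higher members include Socs5 and Socs6, which are not receptors (0.59 and 0.39). Ifngr1, a chain of the interferon gamma receptor, had 107, 109 and 107 CPM in MYC on and 563, 545 and 554 CPM in MYC off (−2.33), and Il12rb1 and Il17ra were lower (−1.62 and −1.22). For NF-kB factors and regulators, 6 of 31 tested genes were higher and 17 lower (median −0.33). The inhibitor genes Nfkbie and Tnfaip3 were lower (−1.99 and −1.53), and Traf3 was higher (0.99). SMAD and TGF-beta pathway comprised 3 higher and 7 lower genes of 24 tested (median −0.05), with the receptor gene Tgfbr2 at −1.58. Those counts are 12.5% higher and 29.2% lower, beside 27.4% and 27.5% over all genes. Of 30 tested members of the list of WNT and TCF/LEF pathway, 6 were higher, 8 lower and 16 not called (median log2 fold change −0.02), with the corepressor gene Tle2 at −2.38 and its relative Tle1 at 0.94. Both WNT shares, 20.0% higher and 26.7% lower, were below those of all genes. The list of semaphorins, plexins, ephrins and tetraspanins had 7 higher and 19 lower among 38 tested genes (median −0.52), with the tetraspanin genes Cd82 and Cd37 lower (−2.10 and −1.78) and Tspan15 and Tspan4 higher (2.27 and 1.99).

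Several families of transcription factors also had more members lower than higher. Among 14 tested genes of the list of ETS factors, 0 were higher and 10 lower (median −0.63). Etv5, which responds to ERK signals, had 8.36, 6.31 and 7.63 CPM in MYC on and 98.1, 94.3 and 97.2 CPM in MYC off (edgeR log2 fold change −3.66 ± 0.10 SE, adjusted p = 1.18e-13). Ets2, Elf1 and Fli1, other members expressed in lymphocytes, were lower (−1.35, −1.13 and −1.09). For IRF and STAT factors, 2 of 14 tested genes were higher and 9 lower (median −0.59). Irf7, Irf1 and Irf2 were lower (−1.58, −1.13 and −0.86), and Stat5a was higher (0.52). KLF and SP factors comprised 2 higher and 10 lower genes of 15 tested (median −0.43). Sp4 and Sp3 were lower (−0.996 and −0.71) and Klf16 was higher (1.11). Of 19 tested members of the list of E proteins, ID and other bHLH factors, 4 were higher, 10 lower and 5 not called (median log2 fold change −0.40), with the E protein inhibitors Id1, Id2 and Id3 at −0.93, −0.94 and −0.82.

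The list of nuclear receptors had 9 higher and 8 lower among 27 tested genes (median 0.21). Nr1d1, the circadian repressor REV-ERBα, had 22.3, 20.8 and 20.8 CPM in MYC on and 5.95, 5.64 and 5.51 CPM in MYC off (edgeR log2 fold change 1.93 ± 0.11 SE, adjusted p = 2.5e-10). Nr3c1, the glucocorticoid receptor, and Rara, a retinoic acid receptor, were lower (−0.74 and −1.44). Among 14 tested genes of the list of forkhead factors, 3 were higher and 4 lower (median −0.05). Foxred1 (0.58), counted among the 3 higher, encodes an oxidoreductase and not a forkhead factor. Foxo1, which promotes quiescence and survival genes of T cells, had 40.4, 37.7 and 40 CPM in MYC on and 98.97, 98.9 and 105 CPM in MYC off (−1.32), Foxm1, a mitotic factor, was lower too (−1.09), and Foxk1 was higher (1.04).

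**Figure D5:**
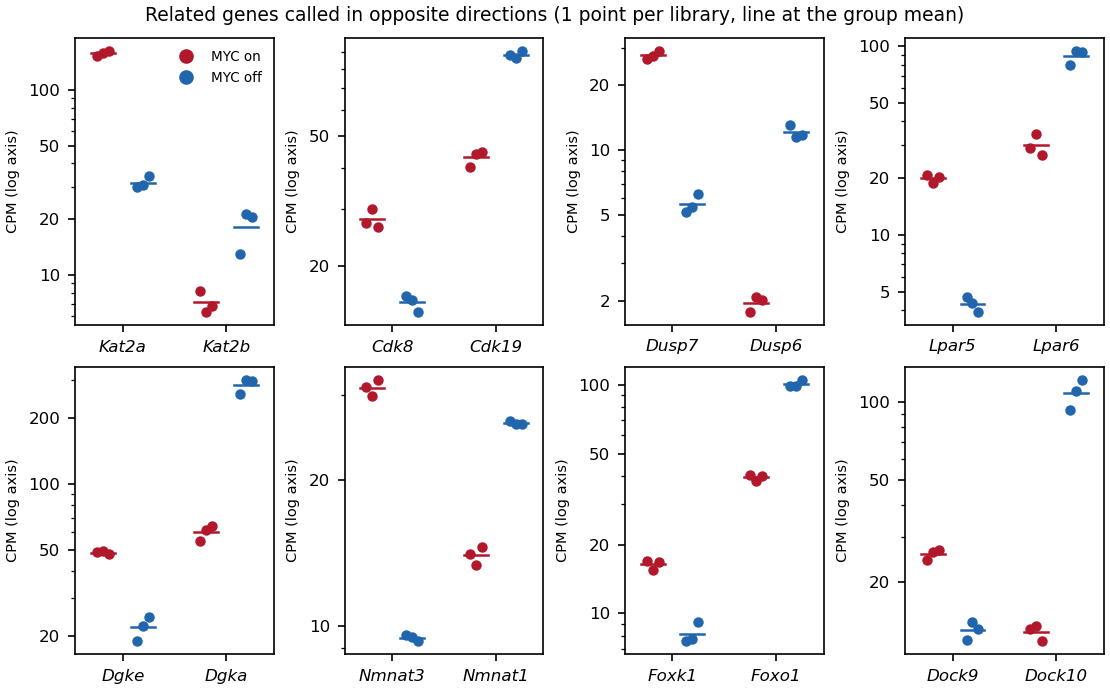
CPM on a log axis for 8 pairs of related genes called in opposite directions, with 1 point per library (n = 3 per state) and a line at each mean. MYC on lies above MYC off for Kat2a, Cdk8, Dusp7, Lpar5, Dgke, Nmnat3, Foxk1 and Dock9, and below it for Kat2b, Cdk19, Dusp6, Lpar6, Dgka, Nmnat1, Foxo1 and Dock10.

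The 8 pairs in the plot of related genes were chosen after their values were seen. Cdk8 and Cdk19, alternative kinases of the Mediator complex, are a further case. Cdk8 had 27.1, 29.99 and 26.3 CPM in MYC on and 16.2, 15.8 and 14.5 CPM in MYC off (0.87), and Cdk19 had 40.1, 44.2 and 44.8 CPM in MYC on and 88.4, 86.4 and 91.1 CPM in MYC off (−1.01). In all 16 genes of the plot the 3 libraries of each state were apart, which follows largely from their being called and adds no separate support.

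Genes of protein traffic and turnover were called in both directions, several at shares near the 27.4% higher and 27.5% lower over all genes. In the order below, 11.1%, 13.6%, 40.0%, 27.0% and 35.9% of tested members were higher and 31.1%, 33.0%, 12.5%, 39.7% and 26.6% lower. For RAB GTPases and their regulators, 5 of 45 tested genes were higher and 14 lower (median −0.13), led by Rab37, a RAB of secretory vesicles (−3.33). COPI, COPII, SNARE and ESCRT traffic comprised 12 higher and 29 lower genes of 88 tested (median −0.12), with the vesicle SNARE gene Vamp1 at −2.21 and Nsf, the ATPase that recycles SNAREs, at 0.67. Of 40 tested members of the list of SRP, translocon and signal peptidase, 16 were higher, 5 lower and 19 not called (median log2 fold change 0.19), with Emc6 of the membrane insertion complex at 1.08 and Tram2 at −1.69. The list of ubiquitin ligases of lymphocytes and SOCS partners had 17 higher and 25 lower among 63 tested genes (median −0.02), with March8, a membrane ligase, at 2.18 and Klhl6, an adaptor of lymphocytes, at −1.71. Among 64 tested genes of the list of deubiquitinases, 23 were higher and 17 lower (median 0.03). Usp36, a nucleolar deubiquitinase, had 80.5, 80.1 and 85.3 CPM in MYC on and 17.1, 20.4 and 21.7 CPM in MYC off (2.09), and Josd1 was higher by 1.77.

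Antigen receptor segments were almost all lower in MYC on. Of 66 tested segments 59 were lower and 1 higher, with a median of −1.96. They comprised 47 of 53 V segments, 9 of 9 J segments and 3 of 3 constant segments of the T cell receptor, with medians of −2.03, −1.84 and −1.40. Trbv23 and Trbv31, the V segments with the highest counts and singled out after their values were seen, were both lower. Trbv23 had 549, 496 and 476 CPM in MYC on and 1426, 1181 and 1110 CPM in MYC off (−1.26). Trbv31 had 284, 258 and 301 CPM in MYC on and 746, 600.4 and 613 CPM in MYC off (−1.18). Trac, the alpha chain constant segment, had 70.4, 68.05 and 62.9 CPM in MYC on and 420, 401 and 375 CPM in MYC off (−2.54). The member higher in MYC on was Ighm, the immunoglobulin mu constant segment (94.5, 76.9 and 83.4 CPM in MYC on and 32.99, 33.5 and 31.8 CPM in MYC off, 1.41), while Cd79b, Ms4a1, Pax5 and Cd22 of B cells had 0 counts. V segments are close in sequence, so the split of reads among them is uncertain.

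Long non-coding genes had more lower than higher calls and pseudogenes more higher than lower ones, with every share below that of all genes. Of 1951 long non-coding genes tested 288 were higher (14.8%) and 486 lower (24.9%, median −0.21), and of 1012 pseudogenes 237 were higher (23.4%) and 71 lower (7.02%, median 0.26), beside 27.4% higher and 27.5% lower over all genes. Pvt1, the non-coding neighbor of the mouse Myc gene, had 7.13, 7.97 and 7.60 CPM in MYC on and 0.101, 0 and 0.19 CPM in MYC off (edgeR log2 fold change 6.19 ± 0.36 SE, adjusted p = 5.45e-10), although Myc itself had 0 counts. Host genes of small nucleolar RNAs, a set chosen after the data were seen, had 8 of 12 members higher and 0 lower (median 1.58), with Snhg15 at 2.93 and Gas5 at 2.42. Among 47 pseudogenes named for ribosomal proteins, 29 were higher and 1 lower (median 1.18), and how reads were split between them and the parent genes is uncertain, as it is for Npm1, Eif5a and Tmsb4x, which have processed copies. Gm16146, a long non-coding gene lower in MYC on, had 0.738, 0.909 and 0.886 CPM in MYC on and 9.35, 9.13 and 9.31 CPM in MYC off (−3.41).

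Markers of other cells and of handling were summed over each list. Myeloid markers held 47.8 to 52.4 CPM in MYC on and 54.5 to 56.8 CPM in MYC off, with 8 of 15, Lyz2 and Cd14 among them, at 0 counts. The gene of that list with the largest change was Itgam, an integrin also carried by lymphocytes (−2.46), and more than 20% of its exon bases overlap another gene. B cell markers held 79 to 96.4 CPM in MYC on and 34.5 to 36.5 CPM in MYC off, nearly all of it Ighm. Erythroid and platelet markers held 3.75 to 4.67 and 5.49 to 5.87 CPM. Stromal, endothelial and epithelial markers held 89.4 to 94.3 and 209 to 228 CPM, nearly all of it Pecam1, an adhesion molecule also found on leukocytes (−1.27), with 6 of 13 at 0 counts. Immediate early genes that mark handling stress held 82.5 to 89.4 and 113 to 121 CPM (7 of 11 lower), and their part in the results was not tested. In bulk RNA, fewer cells of a type and less RNA per cell cannot be told apart.

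MYC intermediate lay between the other states for the genes with the largest folds. Its mean CPM stood between those of MYC on and MYC off for 25 of 25 such genes higher and 25 of 25 lower in MYC on. Those genes were chosen for their large folds between MYC on and MYC off, so a middle position was likely beforehand. The share over all genes tested is not given. For Shmt1 the MYC intermediate libraries held 298, 309 and 315 CPM, and for Dock10 53.2, 59.1 and 55.9 CPM.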

How the data were processed

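Polyadenylated RNA was primed with oligo(dT), and the library kit does not mark the strand. Per the submitters' processing notes, reads were handled with cutadapt 1.16, STAR 2.5.4b and featureCounts on mm10, while the annotation release and strand setting are not given in the sources used here. The authors deposited raw counts per gene, which were the values tested. The deposited score column held counts per kilobase of gene, the deposited FPKM values this score over a library total, and the deposited TPM values the score scaled to a common total, which served as an alternative. The deposited fraction column gave each gene's rank within its library and was not used. Gene identifiers were matched, version dropped, to GENCODE release M21 (53274 of 53379 mouse genes).

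A single edgeR 4.0.16 fit (R 4.3.3, quasi-likelihood, TMM scaling, default count filter, group as the only term) covered all 9 libraries, and MYC on minus MYC off was its contrast, tested two-sided. The threshold was an adjusted p of 0.01 (Benjamini-Hochberg over 14098 genes). On data drawn with known changes, this fit called 84% and 94% of genes lowered and raised 2-fold. Far fewer genes were changed in the drawn data than were called here, which makes the adjusted threshold stricter there. These rates therefore need not hold for the real libraries. DESeq2 1.42.0, other scalings and filters, the 6 libraries alone, thinned counts and left-out libraries were alternatives. Same-numbered MYC on and MYC off libraries deviated together (r = 0.381, 0.256 and 0.224 over 9897 genes), with other combinations from −0.395 to 0.154. Deviations from a mean of 3 libraries are tied to each other, so pairing is possible but not shown. No label gives the meaning of the replicate number. The main fit has no term for pairing, and a fit with a replicate block was an alternative. Replicates of a group differed beyond sampling noise (chi-square per degree of freedom 4.77 to 14.5). Limits from 3 counts hold for counting error alone, as PCR copies are not independent molecules, and changes are relative to the library total.

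The members and the 61 gene lists (2735 genes, 7 further symbols unmatched), written from textbook knowledge, were chosen with earlier results of these data known, and lists are described by counts and medians. A list and a few genes are not reported here. Named genes are hMYC, Myc, the 25 per direction with the largest fold at 10 CPM or more and no overlap, the 10 per direction with the largest difference in CPM, up to 4 per list and direction at 5 CPM or more, genes nearly uncounted in 1 state and up to 5 non-coding genes per direction. Predicted genes and pseudogenes were left out of the first sets. Where more than 20% of a named gene's exon bases overlap another gene, this is stated.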

Additional observations from a re-analysis of the deposited data

How the results depend on the processing

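The number of genes called was 7734. Apart from fits without 1 MYC on or MYC off library, it ranged from 7332 with thinned counts to 8743 in the fit with the replicate block and the 6 libraries. A fit of the 6 libraries alone called 7989 (4141 higher), DESeq2 called 7574, and leaving out 1 library at a time gave 6880 to 7415. Genes called above 2-fold numbered 2746, with 2432 to 2942 under other settings. With the replicate block in the fit of all 9 libraries, 7962 genes were called and hMYC had a log2 fold change of 8.41, and of the 468 named genes only Il10rb lost its call. Over 15 alternative fits, 6971 of 7020 values of named genes kept direction and call, 49 kept the direction alone, in 10 genes, and 0 reversed. Without 1 library at a time, hMYC ran from 8.30 to 8.50. Scaling moved the split of calls, with 3676 higher and 4113 lower by library size alone and 3932 and 3781 with RLE size factors, against 3857 and 3877.

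Of 915 list medians under the alternatives 42 moved by 0.1 or more, and of 1830 list counts 35 moved by over 1.5 times, mostly counts of a few genes. With TPM in place of counts, genes called higher held 44.9% in MYC on and 25.1% in MYC off, and genes called lower held 26.6% in MYC on. The share of promoters with CACGTG moved to 16.5% for genes called higher and 5.85% for genes called lower when only changes above 2-fold were kept. The single gene at or under 3 counts per library in 1 state became 14 when 1 CPM was asked of the other state and 0 when no counts were allowed. Depth limits weakly counted genes, a single time point was compared, and RNA amount per cell was not measured.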
